A study of Homo sapiens with 9 samples.

Results

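Gene expression in cells adapted to oxaliplatin was compared with that in untreated cells labelled as the same line. The comparison took every library labelled with oxaliplatin treatment and every untreated library, 3 of each, which is 6 of the 9 libraries of the series; the other 3 came from cells kept in sorafenib. All cells are labelled as the wild-type human line HCT 15, which is described as derived from a colorectal adenocarcinoma, and all were grown in RPMI1640 medium with 10% fetal bovine serum. The oxaliplatin cells received 0.5 µM of the drug for 7 days, then took steps of 1, 2 and 4 µM from day 10 until day 30, and stayed at 4 µM afterwards; the untreated cells received none. The sorafenib cells were adapted in a similar manner at doses that the labels do not state. Their libraries show where the oxaliplatin cells differ, and they also enter the scaling and the estimate of the spread. No label tells whether the adapted cells were 1 selected population or clone, and none says that the 3 libraries of a group came from separate cultures; the titles of each group's 3 libraries end in 1 shared code. Every p-value below is therefore set against a spread within groups, estimated over all 9 libraries together, and the 3 libraries of a group may be technical repeats.

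Oxaliplatin is a platinum drug that forms crosslinks on DNA and blocks replication and transcription, and it also disturbs the nucleolus, where ribosomes are assembled. Cells that grow on under rising doses can differ from the starting population through selection, through lasting changes of gene regulation and through the direct effect of the drug still present. Bulk RNA measures the sum of these, so fewer cells of a kind and less RNA per cell cannot be told apart. Stress, cell cycle and interferon responses are the usual subjects of such comparisons, and the account below takes up other groups: adhesion and matrix genes, Hippo signalling, the machinery of transcription and splicing, mitochondrial import, cytokine signalling, calcium channels, and noncoding RNA.

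The libraries held 15797076 to 20936536 counts. Within each group the log2 levels of different libraries correlated at 0.970 to 0.977 across genes, which are not independent replicates, and between the groups at 0.937 to 0.964. Of 60683 listed genes, 16159 had enough counts to be tested. The label of the line was checked against marker genes. All 12 colorectal epithelial markers had a median under 1 CPM (read counts relative to the scaled library total), and 7 of them, among them CDX2, CDH1 and KRT20, had 0 counts in every library, whereas all 8 renal epithelial markers were detected and PAX8, a transcription factor of the kidney lineage, had a median of 336 CPM. Summed colorectal markers were 1.64 to 8.65 CPM in untreated and 0.608 to 1.14 CPM in oxaliplatin libraries, with EPCAM called lower (-1.40, adjusted p = 0.022) and VIL1 at up to 7.27 CPM in 1 untreated library. The data thus go against the labelled tissue. The deposited count columns also carry the number 769 beside group and replicate, which no label explains, so HCT 15 is used here only as the label. The summed renal markers stood at 427 to 625 CPM in untreated and 725 to 763 CPM in oxaliplatin libraries, with PAX2, HAVCR1, CDH6 and SLC17A3 called higher and ANPEP lower. Summed immune markers reached at most 0.719 CPM in untreated and 0.597 CPM in oxaliplatin libraries, with PTPRC and CD3E at 0 throughout. Endothelial markers reached 0.352 and 0.304 CPM, with VWF, CDH5 and KDR at 0. Of 6 fibroblast markers 4 had a median under 1 CPM, COL3A1 and LUM at 0, and the sum ranged from 11.3 to 48.8 CPM in untreated and 16.6 to 24.7 CPM in oxaliplatin libraries. Summed smooth muscle, neural and liver markers ranged over 77.0 to 96.6, 179 to 300 and 90.9 to 141 CPM in untreated libraries and over 75.0 to 125, 142 to 198 and 142 to 202 CPM in oxaliplatin libraries. Nearly all of the smooth muscle sum came from SMTN, with MYH11 and DES at a median of 0 CPM. The neural sum rested on NEFL and TUBB3, with SNAP25 at 0. That of the liver rested on FGB and SERPINA1, with ALB and APOA1 at a median of 0.

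The promoters of 3 genes are shown first because the results turn on these genes. FN1, the gene of fibronectin, had the largest increase of the protein-coding genes named below, and CCN2 and ANKRD1 are textbook targets of the coactivator YAP, which binds DNA through TEAD factors. The sequences are the 250 bases before the RefSeq gene start in GRCh38.p14, 5′ to 3′ on the gene's strand, which is the minus strand for all of them (FN1 chr2:215436069-215436318, CCN2 chr6:131951373-131951622, ANKRD1 chr10:90921088-90921337). Capitals mark every match, on either strand, to the cyclic AMP response element TGACGTCA in FN1 and to the TEAD core GGAATG in the other two.
FN1: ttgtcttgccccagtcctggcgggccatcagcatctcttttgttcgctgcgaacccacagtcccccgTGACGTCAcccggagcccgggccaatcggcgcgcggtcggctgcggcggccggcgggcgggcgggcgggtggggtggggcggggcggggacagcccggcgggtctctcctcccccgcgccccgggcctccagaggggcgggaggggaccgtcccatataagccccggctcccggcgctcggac
CCN2: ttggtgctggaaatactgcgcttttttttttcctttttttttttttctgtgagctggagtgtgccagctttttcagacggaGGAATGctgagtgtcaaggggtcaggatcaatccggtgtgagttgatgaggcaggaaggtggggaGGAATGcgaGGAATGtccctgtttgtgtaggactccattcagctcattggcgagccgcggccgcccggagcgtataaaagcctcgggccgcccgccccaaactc
ANKRD1: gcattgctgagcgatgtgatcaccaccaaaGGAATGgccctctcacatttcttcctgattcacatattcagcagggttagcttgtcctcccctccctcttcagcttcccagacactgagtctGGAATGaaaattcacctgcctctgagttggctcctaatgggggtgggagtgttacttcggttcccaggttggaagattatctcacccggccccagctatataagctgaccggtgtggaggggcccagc

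The FN1 window held 1 match, which began 183 bases before the start. The CCN2 window held 3, beginning 169, 104 and 95 bases before it, and the ANKRD1 window held 2, at 220 and 128 bases. ANKRD1 as counted starts further upstream than in RefSeq, at base 90921276, so the match at 128 bases lies inside the counted gene. Of 35116 promoter windows of the same length, 1.65% held TGACGTCA and 11.9% held GGAATG at least once. A window with at least 2 GGAATG matches was found for 0.940% of them. A match describes letters only and shows neither binding nor a cause.

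Of the 16159 genes tested with edgeR's quasi-likelihood test, 5123 (31.7%) were called, that is, had a Benjamini-Hochberg adjusted p under 0.05. Of these 2619 were higher (16.2%) and 2504 lower (15.5%) with the drug. The median log2 fold change of all tested genes was 0.02, as the scaling sets it near 0. The 3 oxaliplatin values lay entirely above the 3 untreated ones for 24.9% of genes and entirely below them for 23.2%. Scaled by library size alone, 3395 genes were higher and 1794 lower, with the median of all genes moved to 0.13; with a correction for the GC content and length of transcripts, 1719 were higher (10.7%) and 3164 lower (19.8%), with a median of -0.07. The number of calls fell to 2945 and 3293 without untreated 2 and 3 and to 2913 and 3311 without oxaliplatin 1 and 2. To name genes that do not rest on 1 library or on these properties, calls were also counted that held in all of 8 checks: leaving out each of the 6 libraries, DESeq2, and the GC and length correction. These were 2146 genes, 969 higher (6.0%) and 1177 lower (7.28%), and they are called stable below.

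FN1, which encodes the matrix glycoprotein fibronectin (chr2:215360440-215436073), stood at 13, 8.96 and 9.02 CPM in untreated 1 to 3 and at 211, 212 and 205 CPM in oxaliplatin 1 to 3. All oxaliplatin libraries were high and nearly equal, far from the untreated range. Its log2 fold change was 4.34 ± 0.17 (SE, adjusted p = 3.3e-06), and sorafenib libraries had 14.8 to 17.8 CPM. CRISPLD2, the gene of a secreted cysteine-rich protein (chr16:84819985-84920768), went from 6.75, 5.97 and 5.30 CPM to 63.4, 60.1 and 63.3 CPM, a log2 fold change of 3.37 ± 0.16 (adjusted p = 9.84e-06). The groups did not overlap for either gene, which the rule for naming the largest changes requires. Sorafenib libraries lay near the untreated ones for CRISPLD2 at 6.52 to 8.84 CPM.

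GFRA1, which encodes the coreceptor for the growth factor GDNF (chr10:116056925-116273467), was measured at 4.22, 7.96 and 6.42 CPM in untreated and 48.2, 46.0 and 50.2 CPM in oxaliplatin libraries. The log2 fold change was 2.95 ± 0.21 (adjusted p = 0.000213). In sorafenib the same gene fell, to 2.57 to 3.24 CPM (log2 fold change -1.12 against untreated, adjusted p = 0.025), and oxaliplatin exceeded sorafenib by 4.07 on the log2 scale (adjusted p = 2.33e-05). SIM1, a transcription factor of the bHLH-PAS family (chr6:100385009-100464921), rose from 9.45, 6.74 and 7.37 CPM to 61.3, 62.2 and 52.5 CPM (2.90 ± 0.21, adjusted p = 0.000213). Its sorafenib values of 6.03 to 10.2 CPM overlapped the untreated ones. PKHD1, the gene of fibrocystin, a membrane protein of primary cilia in kidney tubules (chr6:51615299-52087613), rose from 5.05, 1.77 and 3.34 CPM to 26.7, 26.9 and 26.8 CPM (2.99 ± 0.37, adjusted p = 0.00148). Untreated libraries were spread widely for PKHD1, while the oxaliplatin libraries hardly differed.

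The other large increases among protein-coding genes spanned several functions. COBLL1, whose product belongs to the cordon-bleu family of actin regulators, went from 12.8, 15.5 and 15.5 CPM to 77.6, 80.5 and 73.0 CPM (2.40 ± 0.28, adjusted p = 0.00127). ITGB8, an integrin subunit that activates latent TGF-beta, rose by 2.37 ± 0.21 (adjusted p = 0.000595), the Eph receptor gene EPHA6 by 2.49 ± 0.24 (adjusted p = 0.000822) and the teneurin gene TENM1 by 2.59 ± 0.31 (adjusted p = 0.00125). The antiviral gene TRIM22 (3.14 ± 0.43) shares exons with OR56B1 and C21orf91 (3.33 ± 0.37) with C21orf91-OT1, both in the same orientation, and these counts are uncertain. KLF6, a zinc finger factor, was uneven, with 44.9, 24.7 and 27.4 CPM in untreated but 60.0, 247 and 212 CPM in oxaliplatin libraries; oxaliplatin 1 lay close to untreated 1 (2.42 ± 0.50, adjusted p = 0.00975). The kinase gene SNRK was uneven as well, at 8.94, 34.0 and 12.6 CPM in oxaliplatin against 1.71 to 4.40 CPM (adjusted p = 0.0129; 0.0536 with the GC and length correction combined with the replicate number as a block). GBP1 (2.41 ± 0.31) and C1orf116 (2.40 ± 0.24) complete the set of 15. In all, 700 protein-coding genes that were higher and 1003 that were lower had at least 5 CPM in 1 group, a stable call and groups that did not overlap.

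Among the largest decreases was that of UCN2, which encodes the peptide urocortin 2. It went from 4.46, 11.3 and 8.96 CPM to 0.0458, 0 and 0.547 CPM (-5.46 ± 0.75, adjusted p = 0.00207). Oxaliplatin 2 had no count of it, which allows up to 3 counts or 0.163 CPM, and UCN2 shares exons with PFKFB4 on the same strand, so its counts are uncertain.

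PIM1, the gene of a serine-threonine kinase that supports survival (chr6:37170152-37175428), fell from 60.2, 67.9 and 67.6 CPM to 17.3, 19.5 and 23.3 CPM (-1.71 ± 0.14, adjusted p = 0.00043), while sorafenib libraries kept 62.9 to 77.5 CPM. KRT15, a keratin gene of basal epithelium, fell by 1.77 ± 0.18 (adjusted p = 0.000822). LGALS2, which encodes galectin 2, went from 38.4, 34.1 and 27.3 CPM to 7.52, 9.71 and 12.2 CPM (-1.77 ± 0.24, adjusted p = 0.00166). For each of these genes every oxaliplatin value lay under every untreated one, as the rule for naming the largest changes requires. GCHFR, whose product restrains GTP cyclohydrolase (-1.86 ± 0.25), PXDC1 (-1.86 ± 0.26) and EPS8L3, a relative of an EGF receptor substrate (-2.36 ± 0.43), fell too, with adjusted p-values of 0.00168, 0.00193 and 0.00468. SNORC shares exons with GIGYF2 and TAX1BP3 with P2RX5-TAX1BP3, and their changes of -2.12 and -1.79 are uncertain for that reason.

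**Figure D1:**
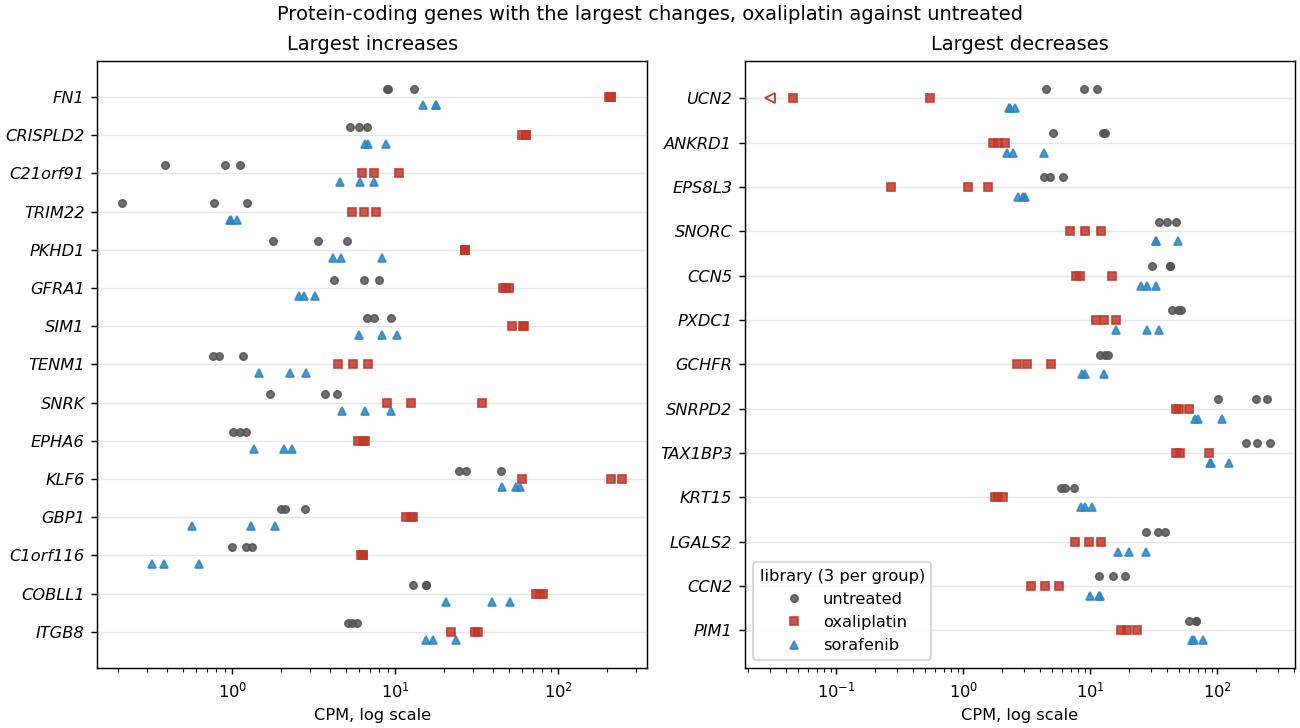
CPM on a log axis in each of the 9 libraries for protein-coding genes with the largest increases (left) and decreases (right) under the naming rule; each point is 1 library and the open triangle is a library with 0 counts. FN1 lies at 205 to 212 CPM in oxaliplatin and at 8.96 to 13 CPM in untreated libraries, and UCN2 has 1 oxaliplatin library without a count.

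Genes controlled by YAP and TEAD moved in both directions. In the Hippo pathway, kinases restrain the coactivators YAP and TAZ, which with TEAD factors switch on genes of growth and matrix signalling. Of 23 tested targets 8 fell and 5 rose, with a median log2 fold change of -0.38; 7 and 3 were stable, and with the GC and length correction 11 fell and 3 rose. Without untreated 2, oxaliplatin 1 or oxaliplatin 3, 3 targets rose. ANKRD1, a nuclear ankyrin-repeat cofactor (chr10:90912096-90921276), had 5.10, 12.5 and 13 CPM in untreated and 1.88, 2.12 and 1.70 CPM in oxaliplatin libraries. Untreated 1 was the lowest of its group but still above every oxaliplatin library (-2.42 ± 0.39, adjusted p = 0.00303). In sorafenib libraries ANKRD1 was called lower as well, at 4.29, 2.44 and 2.2 CPM (-1.78 against untreated, adjusted p = 0.0316). CCN2, a secreted matricellular growth factor (chr6:131948176-131951372), went from 11.6, 15.0 and 18.7 CPM to 3.44, 4.39 and 5.71 CPM (-1.75 ± 0.23, adjusted p = 0.00166). CCN5, its relative on chromosome 20 (chr20:44714844-44728509), went from 42.3, 42.7 and 30.4 CPM to 8.30, 7.70 and 14.7 CPM (-1.91 ± 0.25, adjusted p = 0.00167). Every oxaliplatin value of CCN2 and CCN5 lay under every untreated one. The rule for naming the largest changes requires such separation, also for ANKRD1.

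TK1, a thymidine kinase gene that is also a cell cycle gene, fell by 1.18 ± 0.13. The targets CCN1 at -0.87 ± 0.12, GADD45B at -1.32 ± 0.27 and NUAK2 at -0.57 ± 0.12, chosen after their values were seen, had stable calls as well (adjusted p = 0.00177, 0.00791 and 0.00863). CCN1 remained abundant, at 531, 575 and 615 CPM against 908, 1102 and 1124 CPM. PTPN14, a phosphatase that holds YAP in the cytoplasm and is itself a target, went the other way, from 240, 247 and 261 CPM to 604, 564 and 571 CPM (1.22 ± 0.15, adjusted p = 0.00125). Its exons overlap AL929236.1 on the same strand.

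Of 20 tested Hippo pathway members 7 rose and 1 fell (median 0.35); 3 of the increases were stable, and with the GC and length correction 3 rose and 1 fell. The 3 stable ones, chosen after their values were seen, were the scaffold gene WWC1, from 115, 112 and 117 CPM to 191, 195 and 194 CPM (0.75 ± 0.12, adjusted p = 0.00266), the atypical cadherin gene FAT1 (1.54 ± 0.32, adjusted p = 0.00886) and AMOT, whose product binds YAP (1.51 ± 0.26, adjusted p = 0.00379). YAP1 itself was at 0.23 ± 0.20 (adjusted p = 0.388), WWTR1, the gene of TAZ, at 0.35 ± 0.13 (adjusted p = 0.0584) and TEAD1 at -0.51 ± 0.41 (adjusted p = 0.377). Of the targets, 19 had a RefSeq promoter window and 10 of these held GGAATG at least once, among them the called genes ANKRD1, CCN2, NUAK2, AMOTL2 and PTPN14. PTPN14 rose, and the call of AMOTL2, named after its value was seen, was not stable. Over all promoter windows 11.9% held GGAATG, but that share is per window, whereas the targets were counted per gene. Whether the targets held it more often was not tested.

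**Figure D2:**
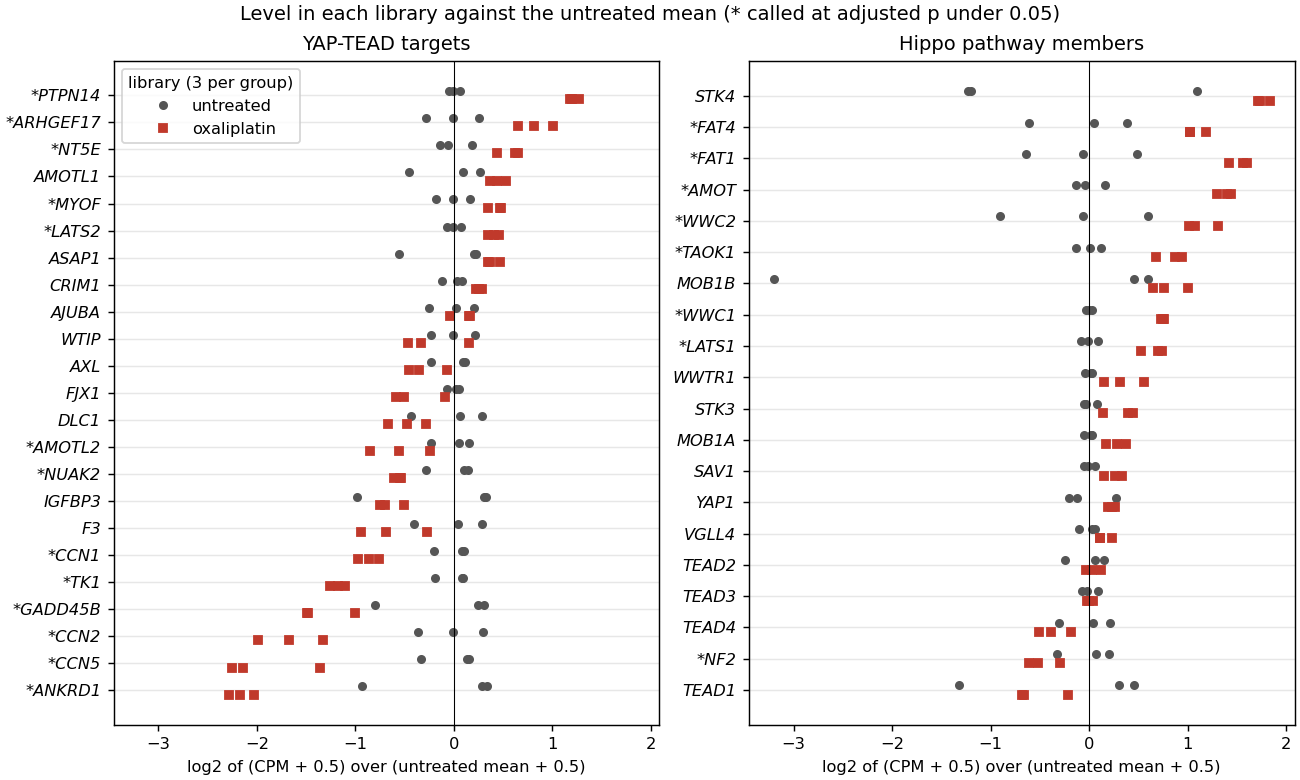
Level of each YAP-TEAD target (left) and Hippo pathway member (right) in the 3 untreated and 3 oxaliplatin libraries, as the log2 of CPM + 0.5 over the untreated mean + 0.5; a star marks an adjusted p under 0.05. ANKRD1, CCN5 and CCN2 have the lowest oxaliplatin values among the targets, and PTPN14 the highest.

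Genes of the transcription and splicing machinery were called lower in part. RNA polymerase II has 12 subunits, all of which were tested: 10 fell and none rose, with a median of -0.80, and 8 of the decreases were stable. Of the subunits without a call, POLR2B was at 0.26 ± 0.10 (adjusted p = 0.0782) and POLR2L at -1.22 ± 0.44 (adjusted p = 0.0637). POLR2K, a small subunit shared with the other nuclear polymerases, went from 93.5, 106 and 114 CPM to 63.2, 69.5 and 63.8 CPM (-0.68 ± 0.11, adjusted p = 0.00287). POLR2A, the catalytic subunit, chosen after its values were seen, went from 29.9, 36.6 and 34.3 CPM to 21.1, 18.8 and 16.5 CPM (-0.84 ± 0.14, adjusted p = 0.00363). With the GC and length correction the count was again 10 lower, with a median of -0.72. The Mediator complex, which links the polymerase to activators, differed by scale, with 6 of 31 members lower and 7 higher, or 9 lower and 2 higher with the GC and length correction; MED10 fell by 0.84 ± 0.12 and MED23 rose by 1.31 ± 0.18 (adjusted p = 0.00204 and 0.00186). Of 29 elongation factors 8 fell and 2 rose (median -0.12; 4 fell without oxaliplatin 1), and 12 fell and 1 rose with that correction.

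Of 58 spliceosome core proteins 31 fell and 3 rose (median -0.44); 22 decreases and none of the increases were stable, and with the GC and length correction 41 fell and none rose. SNRPD2, an Sm ring protein, went from 101, 201 and 244 CPM to 47.6, 50.3 and 59.7 CPM (-1.79 ± 0.32, adjusted p = 0.00545), with untreated 1 well under the other untreated libraries. SNRNP25, a protein of the minor spliceosome, fell from 28.0, 36.6 and 34.8 CPM to 13.1, 13.1 and 12.3 CPM (-1.37 ± 0.15, adjusted p = 0.00113). SNRPB, another Sm protein, fell from 615, 731 and 718 CPM to 303, 287 and 391 CPM (-1.07 ± 0.15, adjusted p = 0.00205); it overlaps AL049650.2 on the same strand. SNRPA fell by 1.22 ± 0.18 and SNRPC by 0.84 ± 0.12, both parts of the U1 particle that recognises the start of an intron. SF3B1, the large branch point protein, was called higher at 0.41 ± 0.11 (adjusted p = 0.0206), but at -0.02 with the GC and length correction (adjusted p = 0.855); it was chosen after its values were seen.

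Of 53 factors that process ribosomal RNA 33 fell and 1 rose (median -0.42), 20 of the decreases were stable, and 33 fell with the GC and length correction; without oxaliplatin 1 the count lower was 21. NCL, the gene of the nucleolar protein nucleolin, went from 979, 1317 and 1315 CPM to 601, 564 and 659 CPM (-0.99 ± 0.14, adjusted p = 0.00175). EBNA1BP2, a factor of the large subunit, went from 121, 176 and 172 CPM to 68.9, 76.3 and 85.4 CPM (-1.02 ± 0.16, adjusted p = 0.00298), and MRTO4 and TSR1 fell by 0.83 ± 0.13 and 0.63 ± 0.11 (adjusted p = 0.00312 and 0.00331). In each case the oxaliplatin libraries were all under the untreated ones. Of 32 genes of RNA polymerases I and III 5 fell and 4 rose, near the shares of all tested genes (15.5% lower and 16.2% higher). Of these calls 1 decrease was stable, and 9 fell and 1 rose with the GC and length correction. Without untreated 1, 9 fell. Leaving out untreated 2 or 3 or oxaliplatin 1 or 2 left 1 or 2 lower and 1 or 2 higher.

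Mitochondrial import and cristae genes, which bring nuclear-encoded proteins into the organelle and shape its inner membrane, fell in 21 of 45 cases and rose in 1 (median -0.53; 15 stable decreases; 23 lower with the GC and length correction). HSPD1, the matrix chaperonin, went from 962, 1053 and 1130 CPM to 663, 670 and 614 CPM (-0.69 ± 0.10, adjusted p = 0.00221). PHB, the gene of prohibitin, went from 345, 426 and 418 CPM to 220, 223 and 225 CPM (-0.83 ± 0.12, adjusted p = 0.00175), and TIMM17A, a channel subunit of the inner membrane, fell by 0.79 ± 0.11 (adjusted p = 0.00207). Of 35 genes of the citric acid cycle 12 fell and 2 rose (7 fell without untreated 3). Of 48 one-carbon, serine, polyamine and NAD genes 14 fell and 5 rose (8 and 3 without oxaliplatin 1, and 3 rose without oxaliplatin 2): ODC1, the first enzyme of polyamine synthesis, fell by 0.80 ± 0.13 and MTHFD1L by 0.71 ± 0.12, while MAT2A, which makes S-adenosylmethionine, rose by 0.61 ± 0.10 (adjusted p = 0.00298, 0.00344 and 0.00273).

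Genes of nuclear transport depended on the scale. Of 58 nucleoporins and transport receptors 13 fell and 10 rose, with a median of 0.04, whereas with the GC and length correction 31 fell and 3 rose and the median was -0.33; fewer rose without untreated 2 and 3 (3 and 6) and oxaliplatin 1 and 2 (4 and 6). RANBP1, a regulator of the RAN GTPase that drives transport, had a stable decrease from 160, 203 and 204 CPM to 65.6, 71.4 and 77.0 CPM (-1.41 ± 0.14, adjusted p = 0.000822). Variant and linker histones, which replace or bridge the standard nucleosome, were called lower in 5 of 9 cases and higher in none, with 3 stable; leaving out untreated 2 or 3 or oxaliplatin 1 or 2 left 3 each. H3-3B, a gene of the replacement histone H3.3, went from 656, 741 and 831 CPM to 319, 342 and 358 CPM (-1.13 ± 0.12, adjusted p = 0.00103).

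**Figure D3:**
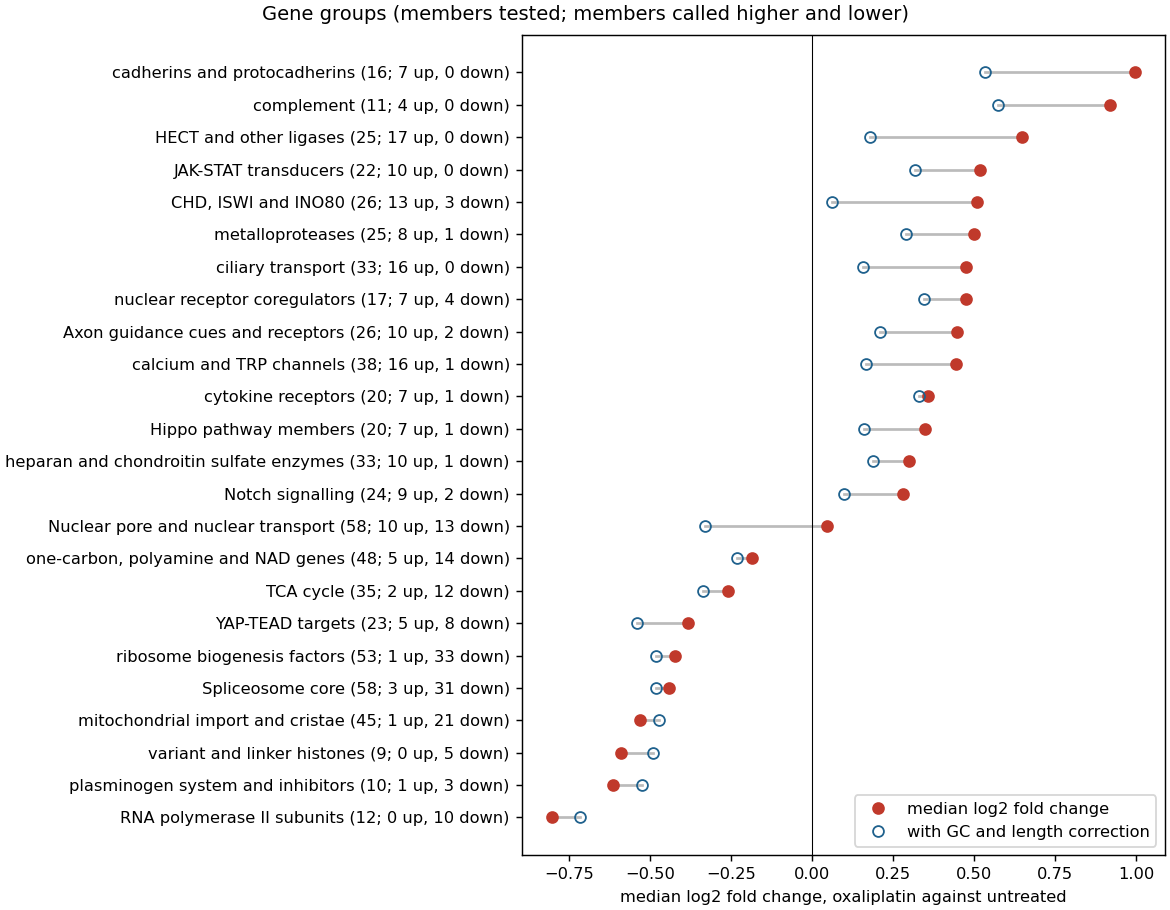
Median log2 fold change, oxaliplatin against untreated, of 24 gene groups, with (open) and without (filled) the GC and length correction; labels give the members tested and how many were called higher and lower. RNA polymerase II subunits lie lowest at -0.80 and -0.72, and cadherins highest of these groups without the correction at 1.00.

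At the cell surface, 7 of 16 cadherins were called higher. Of the 16 tested cadherins and protocadherins, which join neighbouring cells through calcium-dependent contacts, 7 rose and none fell (median 1.00); 4 increases were stable, and with the GC and length correction 5 rose and none fell. CDH6, the kidney cadherin (chr5:31193686-31329146), went from 11.3, 7.57 and 6.05 CPM to 34.4, 36.2 and 30.2 CPM (2.02 ± 0.21, adjusted p = 0.000876); DUX4L51 overlaps it on the same strand. CELSR2, a cadherin of planar polarity, rose from 48.2, 45.6 and 37.4 CPM to 86.6, 93.1 and 109 CPM (1.14 ± 0.17, adjusted p = 0.00222). The 44 immunoglobulin-type, desmosomal and related adhesion genes were split, with 12 higher and 10 lower (6 lower without untreated 2, oxaliplatin 1 or oxaliplatin 2). The desmosomal linker PPL rose by 1.19 ± 0.15 and the neuronal and epithelial adhesion gene CADM1 by 1.07 ± 0.14 (adjusted p = 0.00142 and 0.00166).

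Guidance molecules of axons also act on epithelial and cancer cells. Of 26 tested cues and receptors 10 rose and 2 fell (median 0.45); 4 and 1 were stable, and 4 rose and 4 fell with the GC and length correction. ROBO1, the receptor of Slit proteins, went from 9.45, 8.62 and 9.76 CPM to 30.5, 30.0 and 27.9 CPM (1.67 ± 0.14, adjusted p = 0.00043). NRP2, a coreceptor of semaphorins and VEGF, went from 6.57, 6.80 and 8.75 CPM to 21.3, 12.4 and 20 CPM (1.28 ± 0.26, adjusted p = 0.0066), with oxaliplatin 2 the lowest of its group. Of 13 ephrins and Eph receptors 4 rose and 1 fell (2 rose without untreated 2 or 3 or oxaliplatin 1 or 2). With the GC and length correction 3 rose and 2 fell. EPHA6, named above for its large increase, is not among these 13. EPHA7 rose by 0.78 ± 0.14 (adjusted p = 0.004; 0.0693 with the GC and length correction combined with the replicate block) and the ligand gene EFNB2 by 0.82 ± 0.15 (adjusted p = 0.00512).

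Among enzymes that build and edit the matrix, metalloproteases and the plasminogen system differed in direction. Of 25 metalloproteases 8 rose and 1 fell (median 0.50; 5 and 1 stable; 6 and 2 with the GC and length correction). ADAMTS1, which cuts proteoglycans, went from 131, 96.4 and 110 CPM to 226, 200 and 222 CPM (0.94 ± 0.13, adjusted p = 0.00166), and ADAMTS3, a procollagen protease, rose by 1.05 ± 0.19 (adjusted p = 0.00418). Of 10 plasminogen activators and protease inhibitors 3 fell, all stable, and 1 rose (median -0.61). PLAU, the gene of urokinase, went from 165, 195 and 182 CPM to 106, 118 and 119 CPM (-0.66 ± 0.11, adjusted p = 0.0031), and TIMP1, an inhibitor of metalloproteases, fell by 0.77 ± 0.12 (adjusted p = 0.00312).

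Collagen-modifying enzymes were called higher in 4 of 19 cases and lower in 1 (2 higher without untreated 2 or 3), and in 3 and 4 cases with the GC and length correction. Over all tested genes 16.2% were higher and 15.5% lower without the correction. P3H2, a prolyl hydroxylase of basement membrane collagen, went from 16.7, 25.3 and 23.2 CPM to 70.0, 64.6 and 62.0 CPM (1.59 ± 0.16, adjusted p = 0.000822), and TLL1, a procollagen protease, from 0.469, 0.553 and 0.477 CPM to 4.45, 3.53 and 3.47 CPM (2.92 ± 0.34, adjusted p = 0.00118). Both also exceeded sorafenib, by 2.43 and 3.04 on the log2 scale (adjusted p = 8.24e-05 and 0.00088). Of 33 genes that make or trim heparan and chondroitin sulfate, the sugar chains of proteoglycans, 10 rose and 1 fell (median 0.30; 6 stable increases; 7 and 1 with the GC and length correction). CHST15, a chondroitin sulfotransferase, went from 9.27, 8.46 and 11.1 CPM to 23.8, 23.2 and 21 CPM (1.24 ± 0.14, adjusted p = 0.00114), and SULF2, which removes sulfate from heparan chains outside the cell, rose by 1.19 ± 0.19 (adjusted p = 0.00292). Of 23 O-glycan and sialylation genes 4 rose and none fell (2 rose without untreated 2 or 3 or oxaliplatin 1 or 3), and 3 rose and 2 fell with that correction. The share that rose was near the 16.2% of all tested genes. OGT, which adds N-acetylglucosamine to proteins inside the cell, went from 251, 201 and 224 CPM to 767, 771 and 628 CPM (1.68 ± 0.19, adjusted p = 0.00106).

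Among genes of cytokine signalling, the calls of receptors and signal transducers were mainly increases, though most members were not called. In this system a receptor activates JAK kinases, which phosphorylate STAT factors, and SOCS proteins feed back on it. Of 22 transducers 10 rose and none fell (median 0.52; 6 stable; 9 and 2 with the GC and length correction), and of 20 receptors 7 rose and 1 fell (median 0.36; 4 stable increases; 4 and 0 with that correction). STAT3, which acts downstream of the interleukin 6 family, went from 95.2, 77.3 and 83.7 CPM to 150, 150 and 149 CPM (0.81 ± 0.11, adjusted p = 0.00167). The oxaliplatin libraries lay above all untreated ones. OSMR, the receptor of oncostatin M, went from 59.0, 53.4 and 59.9 CPM to 126, 129 and 108 CPM (1.08 ± 0.13, adjusted p = 0.00118). SOCS7 rose by 1.51 ± 0.24 (adjusted p = 0.00273). None of 15 ligands rose, and 1 fell: IL18, named after its value was seen, at -1.20 ± 0.19 (adjusted p = 0.003).

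Of 11 complement genes 4 rose and none fell (median 0.92; 3 stable; 4 and 2 with the GC and length correction). C3, the central component (chr19:6677704-6730562), went from 4.63, 2.65 and 4.08 CPM to 15.0, 15.2 and 14.4 CPM (1.97 ± 0.21, adjusted p = 0.000954). CFI, the protease that inactivates it, went from 20.8, 10.2 and 10.0 CPM to 43.3, 43.1 and 40.8 CPM (1.64 ± 0.27, adjusted p = 0.00321), and CD46, a cofactor on the cell surface, rose by 1.36 ± 0.21 (adjusted p = 0.00262). CFI overlaps AC126283.2 on the same strand. In the TGF-beta list, 7 of 38 members rose and 4 fell, near the shares over all genes, and 5 rose and 9 fell with the GC and length correction. BAMBI, a decoy receptor that dampens the pathway, went from 20.8, 32.9 and 28.5 CPM to 10.4, 8.79 and 9.61 CPM (-1.52 ± 0.18, adjusted p = 0.00121), and INHBA, an activin subunit, rose by 1.04 ± 0.14. SMAD7, an inhibitor induced by the pathway, was at -0.43 ± 0.15 (adjusted p = 0.0536) and GDF15 at -0.16 ± 0.14 (adjusted p = 0.389).

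Contractile genes did not move as a group: 4 of 35 rose and 6 fell (3 fell without untreated 2 or 3 or oxaliplatin 1), and 4 rose and 9 fell with the GC and length correction. ACTA2, the smooth muscle actin gene, went from 3.52, 4.26 and 1.96 CPM to 11.3, 9.33 and 11.9 CPM (1.74 ± 0.26, adjusted p = 0.00225). Its exons overlap FAS and ACTA2-AS1 on the opposite strand, and the strand setting of the counts is not given. MYLK, the kinase of myosin light chains, went from 79.0, 58.0 and 59.0 CPM to 165, 164 and 157 CPM (1.31 ± 0.14, adjusted p = 0.00104). TAGLN, another gene of this programme, was at 0.79 ± 0.41 (adjusted p = 0.162), with 2.17, 7.57 and 7.69 CPM against 9.53, 10.0 and 10.6 CPM. Of 25 genes of actin turnover 7 fell and 2 rose; 5 decreases and no increase were stable, 10 fell and none rose with the GC and length correction, and none rose without untreated 1 or 2 or oxaliplatin 1 or 2. PFN1, the gene of profilin, went from 1366, 1767 and 1584 CPM to 655, 637 and 801 CPM (-1.17 ± 0.15, adjusted p = 0.00161).

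Calcium channels and pumps were called higher in 16 of 38 cases and lower in 1 (median 0.45), with 7 stable increases and 8 higher and 3 lower with the GC and length correction; without untreated 3 or oxaliplatin 2, 10 rose. ITPR1, a receptor for inositol trisphosphate that releases calcium from the endoplasmic reticulum (chr3:4493345-4847840), went from 3.29, 2.54 and 1.86 CPM to 12.3, 9.33 and 8.63 CPM (1.98 ± 0.25, adjusted p = 0.00148). ATP2C1, the calcium pump of the Golgi, went from 77.1, 62.9 and 78.3 CPM to 133, 136 and 122 CPM (0.84 ± 0.11, adjusted p = 0.00166). The member that fell was TRPV2, a cation channel named after its values were seen. It had 1.35, 1.49 and 1.17 CPM in untreated libraries and 0 counts in every oxaliplatin library; against 3 counts in each of these, which average 0.161 CPM, it was at least 8.31-fold lower. Its exons overlap AC093484.1 on the same strand. Among potassium channels KCNJ16, an inward rectifier of kidney epithelium, rose from 6.04, 8.13 and 8.01 CPM to 36.8, 20.1 and 30.4 CPM (1.98 ± 0.23, adjusted p = 0.00115).

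Cyclic nucleotide and G protein genes were mixed, at 17 higher and 10 lower of 81, and at 9 higher and 15 lower with the GC and length correction, under which the median went from 0.13 to -0.12 (9, 10 and 11 higher without untreated 2, oxaliplatin 1 and oxaliplatin 2, and 6 lower without oxaliplatin 2). Among all tested genes the uncorrected shares were 16.2% higher and 15.5% lower. PRKACA, the catalytic subunit of protein kinase A, was counted at 2.70, 2.32 and 2.76 CPM in untreated and 0.688, 0.651 and 0.547 CPM in oxaliplatin libraries (-2.03 ± 0.25, adjusted p = 0.00127). ADCY1, an adenylyl cyclase, fell from 18.3, 17.2 and 18.1 CPM to 8.89, 7.81 and 9.73 CPM (-1.02 ± 0.15, adjusted p = 0.00194). In both genes the groups were far apart relative to their spread. The adhesion receptor gene ADGRB2 rose from 0.111 to 0.411 CPM to 1.79 to 2.98 CPM (3.38 ± 0.43, adjusted p = 0.00148).

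Among transcription factors, SOX9 went from 9.03, 8.07 and 5.83 CPM to 23, 22.4 and 21.9 CPM (1.55 ± 0.19, adjusted p = 0.00133), and NFIX rose by 1.43 ± 0.20 while GATA6 fell by 0.75 ± 0.12 (adjusted p = 0.00196 and 0.00288). ETV4, an ETS factor induced by ERK signalling (chr17:43527844-43579620), had 4.52, 3.81 and 3.71 CPM in untreated, 0.688, 1.25 and 1.09 CPM in oxaliplatin and 14.2, 13.2 and 15.2 CPM in sorafenib libraries. It fell in oxaliplatin (-2.0 ± 0.23, adjusted p = 0.00118) and rose in sorafenib (1.82, adjusted p = 0.00215), and the difference between the drugs was -3.82 (adjusted p = 3.16e-05). Of 17 nuclear receptor coregulators and retinoid enzymes 7 rose and 4 fell (2 fell without oxaliplatin 1): NCOA3, a coactivator, rose by 1.10 ± 0.16 and CRABP2, a retinoic acid carrier, fell by 1.10 ± 0.19 (adjusted p = 0.00223 and 0.00413). In the Notch list 9 of 24 rose and 2 fell (3 and 5 with the GC and length correction). The coactivators MAML2 and MAML1 rose by 2.16 ± 0.29 and 0.77 ± 0.14, whereas the target genes HES1 and HES4, named after their values were seen, had -0.87 ± 0.20 and -1.46 ± 0.34 (adjusted p = 0.0107 and 0.0122).

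For drug-related repair, 14 of 55 genes of DNA damage signalling and end joining fell and 7 rose, with 4 and 3 stable, and 21 fell and 3 rose with the GC and length correction. Leaving out 1 library gave as few as 4 lower (oxaliplatin 1) and 3 higher (untreated 2 or oxaliplatin 1); the counts were 9 and 4 without untreated 3, 6 and 4 without oxaliplatin 2, and 9 lower without untreated 2. XRCC6, the gene of the end-binding protein Ku70, went from 639, 779 and 766 CPM to 434, 450 and 473 CPM (-0.69 ± 0.11, adjusted p = 0.00302), and PAXX, which stabilises that step, fell by 1.02 ± 0.19 (adjusted p = 0.00458). LIG4, the ligase of end joining, rose by 0.71 ± 0.13 (adjusted p = 0.00473). ATM, the kinase that signals double-strand breaks, named after its values were seen, went from 18.5, 9.29 and 12.1 CPM to 55.5, 73.3 and 44.6 CPM (2.12 ± 0.44, adjusted p = 0.00926).

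The direction of change followed transcript length. Genes with a known longest transcript were divided into 5 equal groups of 3201. In the shortest, up to 1571 bases, 7.03% were called higher and 23.2% lower, with a median log2 fold change of -0.29. In the longest, over 5498 bases, 37.1% were higher and 4.25% lower, with a median of 0.42, and the groups between changed step by step (medians -0.23, -0.04 and 0.14). The same held in each oxaliplatin library: against the untreated mean the shortest group had medians of -0.24, -0.25 and -0.25 and the longest 0.43, 0.41 and 0.37. Single untreated libraries set against the other untreated ones gave -0.10, 0.10 and 0.02 in the shortest and 0.11, -0.10 and 0.01 in the longest group. Sorafenib 2 and 3 had 0.34 and 0.28 in the longest group and sorafenib 1 had 0.07.

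The trend was also looked at by gene span and GC content. Among genes whose locus was shorter than the median of 25739 bases, those with the shortest transcripts had a median of -0.32 (2745 genes) and those with the longest 0.26 (470 genes); among genes of longer loci the values were -0.17 (456 genes) and 0.45 (2731 genes). By GC content, the group lowest in GC had 25.5% higher and 8.93% lower and the group highest in GC 8.09% and 19.9%. Oxaliplatin 1 and 2 showed this with medians of 0.28 and 0.31 in the lowest and -0.23 and -0.30 in the highest group, while oxaliplatin 3 had 0.10 and 0.01. The part of length and GC content in the results above was not tested beyond the corrected values.

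**Figure D4:**
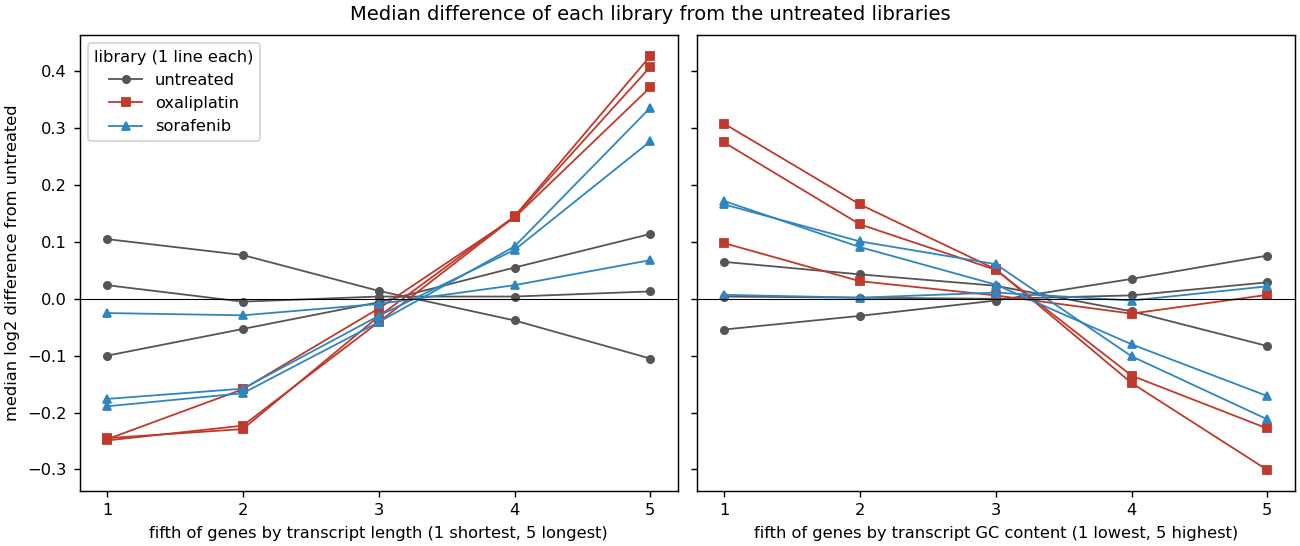
Median log2 difference of each library from the untreated libraries (an untreated library from the other two) for 5 equal groups of genes by transcript length (left) and by GC content (right); 1 line is 1 library. All 3 oxaliplatin lines climb with length, from about -0.25 to between 0.37 and 0.43, while oxaliplatin 3 stays near 0 across GC content.

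Several lists changed with the GC and length correction. Of 25 HECT and other ubiquitin ligases, whose median transcript length was 8005 bases, 17 rose and none fell, but 3 of these were stable and 3 rose and 2 fell with the GC and length correction; without untreated 2 or oxaliplatin 1 or 2, 11 rose. HUWE1 went from 241, 175 and 218 CPM to 483, 423 and 439 CPM and was stable (1.08 ± 0.17, adjusted p = 0.00294), and HERC1 lost its call with the correction (adjusted p = 0.00273 and 0.0941). Of 33 ciliary transport genes 16 rose and none fell, and 3 rose with the correction; the counts were 5 and 7 without untreated 2 and 3 and 6 and 7 without oxaliplatin 1 and 2. Of 44 deubiquitinases 13 rose and 2 fell, and 2 rose and 10 fell with the correction; 5 and 7 rose without untreated 2 and 3, 6 rose without oxaliplatin 1 or 2, and 4 fell without untreated 1. Of 26 remodellers of the CHD, ISWI and INO80 families 13 rose and 3 fell (5 fell without untreated 1), and 5 rose and 6 fell with the correction. DYNC1H1, the dynein heavy chain gene, and SMCHD1 changed sign under it, from 0.61 to -0.15 and from 0.48 to -0.07. The decreases of polymerase, splicing and ribosome biogenesis genes, whose lists had median transcript lengths of 1929, 3128 and 2760 bases, were at least as numerous with the correction as without it, at 10, 41 and 33. The correction also raised the number lower over all genes, from 2504 (15.5%) to 3164 (19.8%). Whether the lists held up beyond this shift was not tested.

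Among noncoding RNAs, 243 of 2045 tested lncRNA genes were higher (11.9%) and 173 lower (8.46%), and 87 and 60 were stable. The shares over all tested genes were larger, at 16.2% higher and 15.5% lower. Stable calls made up 6.0% (higher) and 7.28% (lower) of all tested genes. LINC01320 (chr2:33706886-34738231) went from 1.23, 0.553 and 0.743 CPM to 8.02, 7.27 and 6.50 CPM (3.11 ± 0.31, adjusted p = 0.000822). LUCAT1, a stress-induced lncRNA (chr5:91054834-91314547), rose from 8.80, 5.42 and 6.79 CPM to 24.9, 23.8 and 23.2 CPM (1.78 ± 0.19, adjusted p = 0.00084). SNHG30, a small nucleolar RNA host, fell from 16.3, 17.3 and 17.7 CPM to 5.13, 5.86 and 6.93 CPM (-1.52 ± 0.19, adjusted p = 0.00133); SNORD7 lies within its exons. AL035071.1 fell by 1.90 ± 0.31 and AC145207.5 fell by 1.95 ± 0.30 (adjusted p = 0.00321 and 0.00259). The abundant nuclear RNA MALAT1 rose from 85.1, 72.4 and 78.0 CPM to 149, 121 and 184 CPM (0.94 ± 0.15, adjusted p = 0.00268), but with the GC and length correction its adjusted p was 0.0983; AP000769.3 and AP000769.5 overlap its exons on the same strand. NEAT1 had 83.5 CPM in untreated 1 against 9.95 and 10.8 CPM in untreated 2 and 3 and 20.6 to 29.3 CPM in oxaliplatin libraries. Its log2 fold change of -0.52 ± 0.90 (adjusted p = 0.687) became 1.22 without untreated 1 (adjusted p = 0.177), so no direction was shown.

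Transcribed unprocessed pseudogenes arise by duplication and are often read together with their parent gene. They were called higher in 48 of 248 cases (19.4%) and lower in 8 (3.23%), with 30 and 1 stable. Over all tested genes 16.2% were higher and 15.5% lower, with 6.0% and 7.28% stable, so the share higher was near that of all genes. Pseudogene counts are uncertain where copies are nearly identical. By chromosome, 8.47% of tested genes on chromosome 17 were higher and 23.3% lower, and on chromosome 4 the shares were 22.9% and 10.9%. With the GC and length correction the medians of these chromosomes went from -0.18 and 0.19 to -0.22 and 0.02. In 10-megabase windows with at least 20 tested genes the highest median, 0.50, was on chromosome 6 between bases 90000001 and 100000000, where 11 of 23 genes rose and 1 fell; EPHA7 lies there. With the GC and length correction its median was 0.28, below the 0.30 of the window on chromosome 3 between bases 140000001 and 150000000.

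Against the same untreated libraries, sorafenib had 775 called genes (4.80%), 456 higher (2.82%) and 319 lower (1.97%). Set directly against the sorafenib libraries, oxaliplatin had 1659 called genes (10.3%), 840 higher (5.20%) and 819 lower (5.07%). This count rested on single libraries: it was 572 and 723 without oxaliplatin 1 and 2, and 825, 956 and 787 when sorafenib 1, 2 or 3 was left out. FN1 exceeded sorafenib by 3.64 (adjusted p = 1.12e-05), C1orf116 by 3.81 (adjusted p = 8.44e-05), CRISPLD2 by 3.07 (adjusted p = 1.38e-05) and SIM1 by 2.84 on the log2 scale (adjusted p = 8.61e-05). KRT15 and PIM1 were lower than in sorafenib, with log2 differences of -2.27 and -1.78 (adjusted p = 0.000162 for both). For ITPR1 the difference was 0.06 ± 0.23 (SE, adjusted p = 0.901), which does not show that the drugs act alike. Of the groups above, CDH6 at 1.77 (adjusted p = 0.00113) and H3-3B at -1.06 (adjusted p = 0.000967) also differed from sorafenib, whereas LUCAT1 at -0.09 (adjusted p = 0.772), OSMR at 0.07 (adjusted p = 0.749) and CHST15 at 0.01 (adjusted p = 0.983) were not called. BAMBI and CADM1 were called in sorafenib too, at -1.47 and 1.27 against untreated (adjusted p = 0.00389 and 0.00215).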

How the data were processed

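The authors deposited raw counts of reads per gene, made with featureCounts on GRCh38, and name DESeq2 for their own comparison, per the submitters' processing notes. The versions, the aligner, the annotation release and the strand setting are not given in the sources used here. Exons of some named genes overlap other genes on the opposite strand, among them ACTA2, CRISPLD2, CCN2 and AC145207.5. Their counts are uncertain if strand was ignored in the counting. Counts were analysed in R 4.3.3 with edgeR 4.0.16: low counts were removed with filterByExpr, libraries scaled by TMM factors between 0.944 and 1.05, and all 9 libraries fitted together by robust quasi-likelihood, each group having its own coefficient. P-values were 2-sided and adjusted over all tested genes; the SE is the log2 fold change over the square root of F. A count of 0 allows up to 3 counts, 0.137 to 0.182 CPM by library, which covers counting error only. Alternatives were DESeq2 1.42.0 and those named in the closing section, among them per-library loess corrections (span 0.5) on the GC content and length of the longest GENCODE 29 transcript (99.1% of tested genes).

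Named genes followed a rule. It took the 15 largest changes in each direction among protein-coding genes called with at least 5 CPM in the higher group, a stable call and separate groups; 5 lncRNAs in each direction under the same conditions; up to 4 called members per list with the smallest adjusted p and at least 1 CPM; and 12 fixed genes. Of the 216 genes it gave, the text names those that best show each group, and other genes are said to be chosen after their values were seen. Some genes and lists that the rule covers are not reported here. The members, the 44 gene lists and the tests were chosen with earlier results of these data known. On simulated data, 1, 28, 28 and 42 of 50 genes changed 1.5, 2, 3 and 4-fold were called, and 4 of 103 calls were false. All other genes of the 16159 were unchanged there, whereas 31.7% were called in the data. These figures therefore do not carry over directly to this comparison.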

Additional observations from a re-analysis of the deposited data

How the results depend on the processing

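The number of genes called between oxaliplatin and untreated was within 1.5 times the main one under other scaling, filters, DESeq2, the fit of 2 groups only and the length and GC corrections. Requiring at least 1.5-fold left 497 genes, 340 higher and 157 lower. The number higher was 1719 with the GC and length correction, 1310 with that correction and the replicate number as a block, and 1603 with the length correction alone. Against sorafenib, 809 genes were called with the replicate block and 217 at 1.5-fold or more. With each of the 9 libraries left out in turn, calls ranged from 2913 to 5403 (higher 1492 to 2826, lower 1387 to 2607), and those against sorafenib from 572 to 1949; fewer samples enter each of these fits. Same-numbered libraries did not deviate together, with correlations of -0.11 to 0.036. In groups this small the check cannot exclude that the numbers pair libraries. The replicate block gave 3773 calls between oxaliplatin and untreated. DYNC1H1 reversed to -0.148 with the GC and length correction, -0.145 with the block added and -0.231 with length alone, GDF15 to 0.177, 0.176 and 0.023, and SMCHD1 to -0.068, -0.069 and -0.045; these corrections act on transcript length. NEAT1 ranged from -0.968 to 1.215 when 1 library was left out and was reversed without untreated 1. Of the 216 named genes, 183 kept their call in every alternative other than the 1.5-fold one, and 28 lost it in at least 1. With 3 libraries a group, changes near 1.5-fold were seldom called on simulated data (1 of 50). Far fewer genes were changed there than were called in the data, so this count does not carry over directly.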
